A study of Mus musculus with 7 samples.

Results

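A set of 10 genes of the ubiquitin system that act on FOXP3 or on T cell receptor signals were followed in regulatory T cells (Treg cells) sorted from mouse tumours. They are 9 E3 ligases or E3 ligase subunits (Stub1, Cblb, Itch, Rnf31, Traf6, Dtx1, Rnf128, Peli1 and Vhl) and 1 ligase adaptor (Ndfip1), taken by gene name from a count table of 57180 genes. All 10 names matched a single row each, and all 10 passed the filter on low counts, as did 15838 genes of the table. The cells came from Foxp3-Cre-YFP mice, in which Cre recombinase and a yellow fluorescent protein are expressed from Foxp3, that carried tumours of B16-F0, a transplantable mouse melanoma. FOXP3-low Treg cells (4 libraries) were compared with FOXP3-high Treg cells (3 libraries). All 7 libraries share the reporter mice and the tumour model, are labelled wild type, and carry no label of treatment, age, sex, sort gate or animal, so a p-value here reflects spread among libraries that may be technical repeats.

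Ubiquitin is a small protein that is attached to other proteins through a chain of E1, E2 and E3 enzymes, and the E3 ligase selects the substrate. Some ubiquitin chains send a protein to the proteasome, while others serve as scaffolds for signalling complexes. In T cells, E3 ligases set how strongly receptor and costimulatory signals are relayed, maintain the unresponsive state called anergy, and, in Treg cells, alter the stability and location of FOXP3, the transcription factor on which these cells depend. RNA counts measure the transcripts of these enzymes and not their activity.

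The FOXP3-low libraries held 12177761 to 14546999 counts and the FOXP3-high libraries 9048771 to 11202260. Levels are in CPM, each gene's counts scaled to a common TMM-normalized library size, and each log2 fold change (± its standard error) sets FOXP3-high against FOXP3-low, positive where FOXP3-high was higher. Foxp3 followed the labels, at 310 to 397 CPM in FOXP3-low and 639 to 808 CPM in FOXP3-high. Transcripts of other cell types were present in all libraries. The 15 macrophage and monocyte markers summed to 2286 to 2849 CPM in FOXP3-low and 235 to 345 CPM in FOXP3-high, with all 15 lower in FOXP3-high, and the 8 dendritic cell and MHC class II markers, all lower, to 2320 to 3577 and 191 to 312 CPM. The 7 melanoma markers, all higher, summed to 1298 to 2344 and 3206 to 4405 CPM, the 17 T cell identity genes (15 higher, 1 lower) to 3830 to 4249 and 5034 to 5731 CPM, and the 16 cell cycle genes (all lower) to 5663 to 6110 and 1284 to 1481 CPM. No marker of these lists was at 0 in all FOXP3-high libraries, and 1, Clec9a of the dendritic cell list, was at 0 in 1 of them. The part of these differences in the results below was not tested, and in bulk RNA fewer cells of a type and less RNA per cell cannot be told apart. For that reason the fold change of each gene is also given with libraries scaled to the 17 T cell identity genes. For some genes the level per 1000 counts of these 17 is given too. This scaling shifted the median log2 fold change of all genes by -0.38.

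Of the 10 genes, 4 were higher in FOXP3-high (Dtx1, Peli1, Rnf31 and Cblb) and 0 were lower at an adjusted p under 0.05 in edgeR's quasi-likelihood test. Of all genes tested 46.5% were called, 21.8% as higher and 24.6% as lower. The share of the 10 that was called, 40%, lay near that background. Their median log2 fold change was 0.20, against 0.01 over all genes tested. DESeq2 and limma-voom also called 0 of the 10 as lower, and 0 had a negative fold change at an unadjusted p under 0.05. In 5 of the 10 every FOXP3-high library lay above every FOXP3-low library, and in the other 5 the groups overlapped, where 50.7% of all genes tested had separate groups, 23.9% with FOXP3-high entirely above and 26.8% entirely below. When libraries were scaled to T cell identity genes, 2 were higher (Dtx1 and Peli1) and 3 lower (Ndfip1, Stub1 and Itch), where 52.1% of all genes tested were called, 6.9% as higher and 45.2% as lower.

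**Figure D1:**
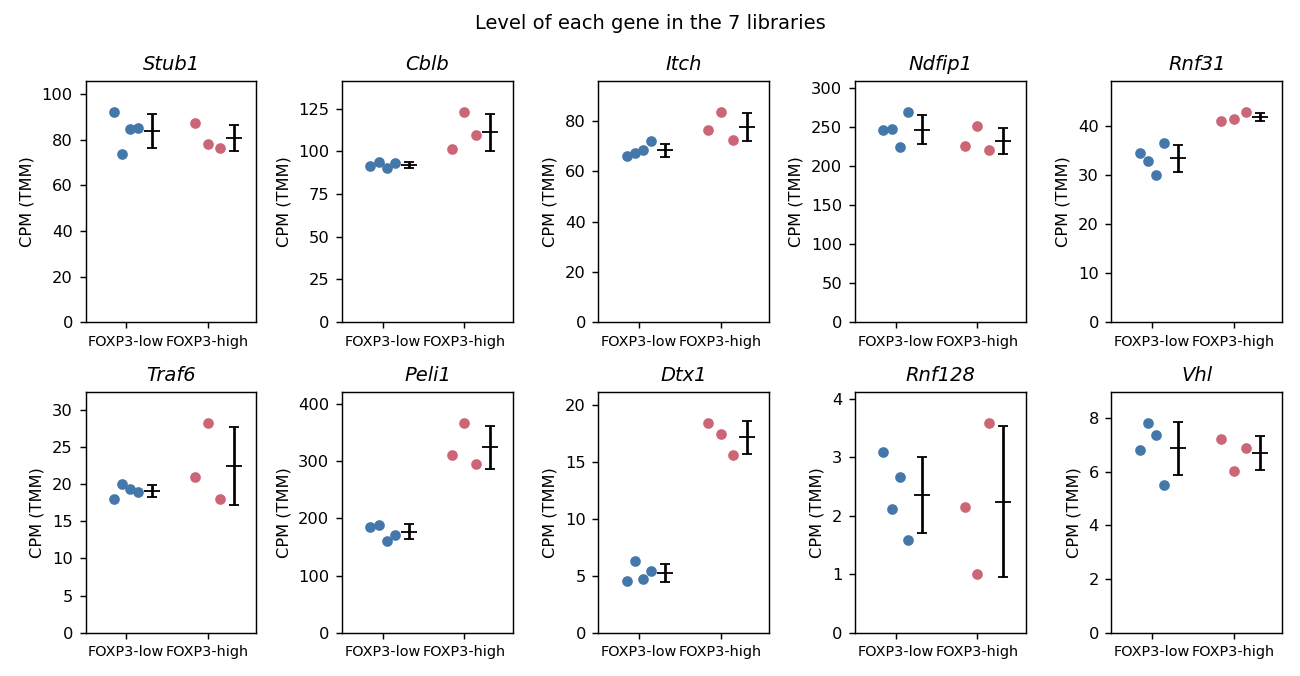
Level of each of the 10 genes in CPM (TMM-normalized, y axis from 0) in the 4 FOXP3-low libraries (blue) and the 3 FOXP3-high libraries (red), with the mean and SD of each group in black. The groups are separate for Dtx1, Peli1, Rnf31, Cblb and, by a narrow margin, Itch, and overlap for the other 5.

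Dtx1 changed most. It encodes Deltex 1, an E3 ligase of the Notch pathway that is a target of NFAT, promotes T cell anergy and has been linked to FOXP3 stability through HIF1A degradation. Dtx1 (ENSMUSG00000029603, chromosome 5, 120818267 to 120849992, minus strand, GRCm39) was at 4.55, 6.26, 4.77 and 5.44 CPM in the FOXP3-low libraries 1 to 4 and at 18.4, 17.5 and 15.6 CPM in the FOXP3-high libraries 1 to 3. The lowest FOXP3-high library was thus well above the highest FOXP3-low library. The log2 fold change was 1.71 ± 0.15, a 3.26-fold increase (edgeR adjusted p = 1.42e-05). Per 1000 T cell identity counts, Dtx1 was at 1.12 to 1.47 in the FOXP3-low libraries and 3.05 to 3.50 in the FOXP3-high ones (log2 fold change 1.33, edgeR adjusted p = 5.92e-05). These values rest on 56 to 77 counts in each FOXP3-low library and 157 to 214 in each FOXP3-high library.

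Peli1 had the second largest increase. It encodes Pellino 1, an E3 ligase that acts downstream of Toll-like receptors and that, in T cells, limits activation by directing the NF-kB subunit c-Rel (encoded by Rel) to degradation. Peli1 (ENSMUSG00000020134, chromosome 11, 21041291 to 21099402, plus strand) was at 185, 189, 161 and 171 CPM in FOXP3-low and at 311, 366 and 296 CPM in FOXP3-high. All 3 FOXP3-high libraries were above all 4 FOXP3-low libraries, with a log2 fold change of 0.88 ± 0.08, a 1.84-fold increase (edgeR adjusted p = 2.40e-05). Per 1000 T cell identity counts it was at 40.4 to 45.6 in the FOXP3-low libraries and 58.8 to 64.0 in the FOXP3-high ones (log2 fold change 0.49, edgeR adjusted p = 1.09e-04). Dtx1 and Peli1 were called as higher under each of the 17 alternatives run.

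The promoters of Dtx1 and Peli1 are shown because these were the genes whose increase passed the test in every alternative; the second was added after its values were seen. Each sequence covers 250 bases before to 50 bases after the RefSeq start site (GRCm38.p6), 5′ to 3′ on the strand of the gene, with the 50 bases from the start site on in capitals. The Dtx1 window is chr5:120711620-120711919 (minus strand) and the Peli1 window chr11:21091074-21091373 (plus strand).
Dtx1: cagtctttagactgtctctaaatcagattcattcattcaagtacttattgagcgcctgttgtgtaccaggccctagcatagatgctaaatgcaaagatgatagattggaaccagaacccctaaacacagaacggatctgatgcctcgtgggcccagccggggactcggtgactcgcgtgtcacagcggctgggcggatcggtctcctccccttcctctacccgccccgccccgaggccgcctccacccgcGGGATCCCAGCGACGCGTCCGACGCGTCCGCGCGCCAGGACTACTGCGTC
Peli1: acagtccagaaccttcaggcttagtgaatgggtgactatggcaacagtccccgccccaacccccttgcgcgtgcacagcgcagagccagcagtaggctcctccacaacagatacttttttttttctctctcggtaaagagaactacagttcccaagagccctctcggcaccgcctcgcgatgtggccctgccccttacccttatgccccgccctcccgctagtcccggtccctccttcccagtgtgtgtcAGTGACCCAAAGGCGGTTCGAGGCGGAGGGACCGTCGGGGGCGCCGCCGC

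Both windows are rich in CG pairs, with 26 in Dtx1 and 20 in Peli1 against a median of 7 over the 32851 promoters of the RefSeq table. The other 6 of these genes with a row in the table held 17 to 31 CG pairs. Among them Cblb and Rnf31, also called as higher, held 17 each. Traf6, Vhl, Rnf128 and Stub1, which were not called, held 19, 25, 26 and 31, so CG content was not particular to the genes that rose. Itch and Ndfip1 had no row. A set of 6 motifs was searched on both strands. The AP-1 motif TGANTCA (in 7.81% of all promoters), the forkhead motif TGTTTAC (3.65%), the NFAT core TGGAAA (21.4%) and the E2F motif TTTCCCGC (1.07%) were in 0 of the 8 promoters. The hypoxia response core ACGTG (19.6% of all promoters) was in 3, those of Stub1, Cblb and Traf6, and the ETS motif CCGGAAGT (3.89%) in 1, that of Stub1. These are letter matches within 300 bases and do not show binding.

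Genes around Dtx1 and the anergy programme moved in both directions. Of 19 genes of anergy and Notch signalling 7 were higher and 8 lower in FOXP3-high (edgeR), with a median log2 fold change of -0.0024. Egr2, a transcription factor that induces anergy genes including Cblb, fell from 36.5 ± 7.36 (SD, n = 4) to 8.37 ± 1.85 CPM (SD, n = 3), a 4.33-fold decrease (edgeR adjusted p = 2.25e-05); macrophages also express it, and their markers given above fell with it. Dgka, the diacylglycerol kinase that dampens receptor signalling in anergic cells, rose from 188 ± 16.3 to 464 ± 44.6 CPM, 2.47-fold (edgeR adjusted p = 1.88e-06). Dgka overlaps the pigment gene Pmel by 105 bases on the opposite strand, and Pmel stood at 54.1 and 115 CPM. Rbpj, the DNA-binding effector of Notch, fell 1.98-fold from 434 ± 3.68 to 219 ± 7.93 CPM. Dgka kept its direction and its call with T cell identity scaling (log2 fold change 0.92). That scaling shifted the median of all genes by -0.38, so it could not test the decreases of Egr2 and Rbpj. Notch1, the receptor upstream of Rbpj, was higher by a log2 fold change of 0.33 ± 0.06, a call that was lost with T cell identity scaling (log2 fold change -0.05).

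Among the Deltex relatives, Dtx3 was at 20.3 ± 2.61 and 35.8 ± 3 CPM (log2 fold change 0.82, edgeR adjusted p = 3.01e-04), while Dtx2 and Dtx4 were not called and Dtx3l was called as higher with TMM (0.38) but was at -0.001 with T cell identity scaling. Set within each library, per kb of gene length, the ratio of Dtx1 to Notch1 was 0.114, 0.146, 0.116 and 0.142 in FOXP3-low and 0.378, 0.332 and 0.301 in FOXP3-high. A ratio of 2 genes in the same library does not depend on how libraries are scaled. It was 2.61-fold higher in FOXP3-high with no overlap of the groups (two-sided exact permutation test, p = 0.0286, the smallest that 35 arrangements of the libraries allow; p = 0.114 after Benjamini-Hochberg adjustment over the 12 ratios computed).

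Rnf128 encodes GRAIL, a membrane-anchored E3 ligase that is induced in anergic T cells. It was the least expressed of the 10 genes and rested on 9 to 38 counts in a library. Rnf128 (ENSMUSG00000031438, chromosome X, 138464065 to 138573894, plus strand) was at 3.09, 2.11, 2.66 and 1.59 CPM in FOXP3-low and at 2.15, 1.002 and 3.59 CPM in FOXP3-high. The lowest and the highest library were both FOXP3-high. The log2 fold change of -0.06 ± 0.41 had a 95% interval from -0.98 to 0.85 (edgeR adjusted p = 0.91), the widest of the 10 genes. With T cell identity scaling it was -0.43 (edgeR adjusted p = 0.46). Otub1 and Usp8, deubiquitinases known as regulators of GRAIL, had log2 fold changes of -0.27 and -0.16, both called as lower; Otub1 was no longer called under 3 of the 4 other scalings.

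Several genes of the Pellino pathway were lower where Peli1 was higher. Of 7 tested genes of the Pellino family and its pathway, 4 were lower (edgeR, median log2 fold change -0.25) and the other 3 were not called. Among all genes tested 24.6% were lower. Rel was at 183 to 207 CPM in the FOXP3-low libraries and at 129 to 165 CPM in FOXP3-high, a 1.39-fold decrease (log2 fold change -0.48 ± 0.09, edgeR adjusted p = 0.0017). Myd88, the adaptor of Toll-like receptors that myeloid cells also express, fell from 33.9 ± 2.31 to 20.4 ± 1.74 CPM, and overlaps Acaa1a on the opposite strand. Irak1, a kinase of the same pathway and a substrate of Pellino proteins, fell 1.19-fold. Peli2, a second Pellino ligase, was at 3.37 ± 0.40 and 0.91 ± 1.02 CPM (edgeR adjusted p = 0.021). The macrophage markers given above were lower in the same libraries as these 4 genes, and their part was not tested.

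The ratio of Peli1 to Rel per kb of gene length was 1.02, 1.07, 0.999 and 0.981 in FOXP3-low and 2.70, 2.52 and 2.60 in FOXP3-high. Transcripts of the ligase and of its substrate were thus at a like level per kb in FOXP3-low, and the ligase was ahead in every FOXP3-high library. The 2.57-fold difference had the smallest exact permutation p the libraries allow, 0.0286 (two-sided, p = 0.114 adjusted over the 12 ratios). Leaving out any library gave log2 differences between 1.33 and 1.38.

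Cblb encodes the RING ligase CBL-B, which restrains T cell receptor signalling in the absence of CD28 costimulation. Cblb (ENSMUSG00000022637, chromosome 16, 51851588 to 52025876, plus strand) was at 91.2, 94.0, 90.4 and 93.1 CPM in FOXP3-low and at 101, 123 and 109 CPM in FOXP3-high. The FOXP3-low libraries lay close together and below each FOXP3-high library. The log2 fold change was 0.27 ± 0.07, a 1.21-fold increase (edgeR adjusted p = 0.0099). Per 1000 T cell identity counts the order was the other way, with 22 to 23.6 among FOXP3-low libraries and 19.2 to 21.7 in FOXP3-high (log2 fold change -0.12, edgeR adjusted p = 0.17), so the call did not hold under that scaling. Its homologue Cbl was higher by nearly the same amount (0.28 ± 0.06), and the ratio of Cblb to Cbl per kb was 0.817 to 0.890 among FOXP3-low libraries and 0.820 to 0.880 in FOXP3-high (log2 difference -0.01, exact permutation p = 0.89).

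Itch encodes a HECT ligase of the NEDD4 family that targets JUNB and phospholipase C gamma, and mice without it develop inflammation. Itch (ENSMUSG00000027598, chromosome 2, 154975429 to 155068773, plus strand) was at 66.0, 67.4, 68.4 and 71.9 CPM in FOXP3-low and at 76.5, 83.4 and 72.4 CPM in FOXP3-high. The groups did not overlap, with FOXP3-high replicate 3 just above FOXP3-low replicate 4, and the log2 fold change of 0.18 ± 0.07 did not pass the threshold (edgeR adjusted p = 0.054). It was called without FOXP3-low replicate 4 or without FOXP3-high replicate 3, at 0.22 in each case. Per 1000 T cell identity counts, Itch was at 15.9 to 17.9 in the FOXP3-low libraries and 14.4 to 14.6 in the FOXP3-high ones, which was called as lower (log2 fold change -0.21, edgeR adjusted p = 0.025). All genes tested had a median of -0.37 under that scaling, and Itch lay above it. The direction of Itch therefore turned with the scaling, with separate groups under both.

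Ndfip1 encodes a membrane adaptor that recruits and activates Itch and other NEDD4 family ligases. Ndfip1 (ENSMUSG00000024425, chromosome 18, 38543449 to 38597427, plus strand) was at 246, 248, 224 and 269 CPM in FOXP3-low and at 226, 252 and 221 CPM in FOXP3-high. The groups overlapped, with a log2 fold change of -0.08 ± 0.07 and a 95% interval from -0.24 to 0.07 (edgeR adjusted p = 0.37). With T cell identity scaling it was lower, at 58.3 to 63.4 per 1000 such counts in the FOXP3-low libraries and 42.9 to 43.9 in the FOXP3-high ones (log2 fold change -0.47, edgeR adjusted p = 4.65e-05). The median of all genes tested was -0.37 under that scaling, so most of this decrease was shared by the whole table. The ratio of Itch to Ndfip1 per kb was 0.175, 0.177, 0.199 and 0.175 in FOXP3-low and 0.221, 0.216 and 0.214 in FOXP3-high. Every FOXP3-high library was above every FOXP3-low library, 1.20-fold on average (two-sided exact permutation p = 0.0571, p = 0.171 adjusted over the 12 ratios).

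The wider CBL and NEDD4 families, with their adaptors and substrates, leaned towards FOXP3-high. Of 19 genes 12 were higher and 2 lower (edgeR, median log2 fold change 0.41). Among all genes tested 21.8% were higher and 24.6% lower (median 0.01). With T cell identity scaling, which itself uses Cd28 and Zap70 of this list, 3 were higher and 8 lower (median 0.02). Over all genes tested that scaling gave 6.9% higher and 45.2% lower (median -0.37), so the list median stayed above that of all genes. The smallest adjusted p-values belonged to genes whose proteins are substrates of these ligases. Prkcq, the protein kinase C theta of the T cell synapse, rose from 77.8 ± 6.54 to 157 ± 9.40 CPM (a log2 change of 1.01 ± 0.07, edgeR adjusted p = 5.01e-06), and Plcg1, phospholipase C gamma 1, from 384 ± 30.3 to 661 ± 50.8 CPM (0.79 ± 0.07, edgeR adjusted p = 1.99e-05). Both were also higher with T cell identity scaling, by 0.63 and 0.40. Ubash3a, a phosphatase-like partner of CBL proteins, rose 1.56-fold, and Pik3r1, the regulatory subunit of phosphoinositide 3-kinase, rose 1.44-fold, a call that was lost with T cell identity scaling (0.14).

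Nedd4, the founding ligase of the family, varied among libraries of the same group. It was called as higher (64.3 ± 19.5 and 109 ± 25.5 CPM, log2 fold change 0.76 ± 0.22, edgeR adjusted p = 0.018), although the groups overlapped and the call was lost with T cell identity scaling. The ratio of Itch to Nedd4 per kb was 1.70, 1.71, 0.963 and 1.47 in FOXP3-low and 0.846, 1.34 and 0.725 in FOXP3-high (exact permutation p = 0.114). The 3 libraries with a ratio under 1, FOXP3-low replicate 3 and FOXP3-high replicates 1 and 3, were those with the most fibroblast and endothelial marker counts, at 679, 351 and 578 CPM against 89.5 to 173 CPM in the other 4. The part of those cells in the level of Nedd4 was not tested.

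Rnf31 encodes HOIP, the catalytic subunit of the linear ubiquitin assembly complex that activates NF-kB, and has been reported to stabilise FOXP3. Rnf31 (ENSMUSG00000047098, chromosome 14, 55829165 to 55841130, plus strand) was at 34.4, 32.8, 29.9 and 36.4 CPM in FOXP3-low and at 41.0, 41.4 and 42.7 CPM in FOXP3-high. The FOXP3-high libraries lay close together and above all FOXP3-low libraries. The log2 fold change was 0.32 ± 0.08, a 1.25-fold increase (edgeR adjusted p = 0.0089). Without both libraries numbered 3 the call was lost (0.26, edgeR adjusted p = 0.060). Scaling to T cell identity genes gave a log2 fold change of -0.06 (edgeR, adjusted p = 0.62). Rnf31 overlaps Irf9 by 103 bases on the same strand, and Irf9 held 277% as many counts.

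The partners of HOIP in the complex were both called as higher with TMM. Rbck1, which encodes HOIL-1, had a log2 fold change of 0.18 ± 0.06 and Sharpin 0.46 ± 0.12. With T cell identity scaling Rbck1 was called as lower (-0.21, edgeR adjusted p = 0.030) and Sharpin was not called (0.09). The ratios of Rnf31 to its partners overlapped between the groups. Rnf31 to Rbck1 per kb was 0.342 to 0.421 among FOXP3-low libraries and 0.393 to 0.440 in FOXP3-high (exact permutation p = 0.17), and Rnf31 to Sharpin was 1.6 to 1.97 and 1.40 to 1.77 (exact permutation p = 0.31).

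Traf6 encodes a RING ligase that builds signalling ubiquitin chains downstream of Toll-like, interleukin-1 and T cell receptors and has been reported to ubiquitinate FOXP3. Traf6 (ENSMUSG00000027164, chromosome 2, 101508774 to 101532014, plus strand) was at 18, 19.9, 19.3 and 18.9 CPM in FOXP3-low and at 21.0, 28.2 and 18 CPM in FOXP3-high. FOXP3-high replicate 2 stood above the rest while replicate 3 was level with the lowest FOXP3-low library. The log2 fold change of 0.23 ± 0.14 was not called (95% interval -0.08 to 0.55, edgeR adjusted p = 0.21), and rested on single libraries: it was 0.063 without FOXP3-high replicate 2 (edgeR adjusted p = 0.68) and was called without FOXP3-high replicate 3 (0.37, edgeR adjusted p = 0.049). The ratio of Traf6 to Traf3 had a log2 difference of -0.01 (exact permutation p = 0.94), and that of Traf6 to the deubiquitinase gene Cyld one of -0.19 (exact permutation p = 0.20).

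Of 20 genes of linear ubiquitin and TRAF signalling, 13 were higher and 1 lower in FOXP3-high (edgeR, median log2 fold change 0.33). With T cell identity scaling 2 were higher and 8 lower (median -0.06). Medians over all genes tested were 0.01 with TMM and -0.37 with that scaling, with 21.8% and 6.9% higher and 24.6% and 45.2% lower. Tnfaip3, the ubiquitin-editing inhibitor of NF-kB, rose from 1145 ± 91.2 to 1952 ± 261 CPM (a log2 change of 0.77 ± 0.09, edgeR adjusted p = 8.97e-05). Malt1, the paracaspase that links the T cell receptor to TRAF6, rose from 308 ± 19.2 to 481 ± 55.1 CPM (0.64 ± 0.08, edgeR adjusted p = 1.16e-04). These 2 were also higher with T cell identity scaling, by 0.38 and 0.26. Cyld and the adaptor Tab2 were higher by 0.40 each with TMM, which fell to 0.02 each, with the calls lost, under that scaling.

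Stub1 encodes CHIP, a U-box ligase that binds HSP70 and has been shown to ubiquitinate FOXP3 for degradation under inflammatory stress. Stub1 (ENSMUSG00000039615, chromosome 17, 26049479 to 26052378, minus strand) was at 92.1, 74.0, 84.7 and 85.1 CPM in FOXP3-low and at 87.4, 78.3 and 76.6 CPM in FOXP3-high. The FOXP3-high values lay within the FOXP3-low range. The log2 fold change of -0.06 ± 0.08 was not called, with a 95% interval from -0.24 to 0.13 (edgeR adjusted p = 0.62). Per 1000 T cell identity counts Stub1 was at 17.4 to 22.7 in the FOXP3-low libraries and 13.7 to 16.6 in the FOXP3-high ones, called as lower (log2 fold change -0.44, edgeR adjusted p = 0.0067). The median of all genes tested under that scaling was -0.37, so most of this decrease was shared by the whole table. Jmjd8 overlaps Stub1 by 1263 bases on the opposite strand with 43.1% as many counts, so reads of the pair were not separated with certainty.

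The chaperones that present clients to CHIP moved in both directions. Of 15 tested genes of FOXP3 ubiquitination, 4 were higher and 7 lower (edgeR, median -0.02). With T cell identity scaling 9 were lower and the other 6 were not called. That scaling called 45.2% of all genes tested as lower, against 24.6% with TMM. Hspa8, the constitutive HSP70, fell from 5529 ± 264 to 4146 ± 31.3 CPM (a log2 change of -0.42 ± 0.04, edgeR adjusted p = 5.55e-05), and Hsp90ab1 fell from 10090 ± 162 to 7325 ± 195 CPM. Ube2n, an E2 enzyme for signalling chains, and Trim28, an E3 ligase and transcriptional cofactor, fell 1.45-fold and 1.46-fold. The stress-induced Hspa1b was higher with TMM (0.45), but not with T cell identity scaling (0.06). The ratio of Stub1 to Hspa8 per kb was 0.0263, 0.0230, 0.0255 and 0.0272 in FOXP3-low and 0.0352, 0.0316 and 0.0313 in FOXP3-high, 1.28-fold higher with no overlap (two-sided exact permutation p = 0.0286, p = 0.114 adjusted over the 12 ratios). Against Usp7, a deubiquitinase that opposes FOXP3 degradation, the ratio of Stub1 was 1.30 to 1.64 among FOXP3-low libraries and 1.21 to 1.46 in FOXP3-high (exact permutation p = 0.14).

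Vhl encodes the substrate receptor of the ligase that degrades HIF1A when oxygen is present, and Treg cells need it to stay suppressive. Vhl (ENSMUSG00000033933, chromosome 6, 113600920 to 113608588, plus strand) was at 6.83, 7.81, 7.36 and 5.52 CPM in FOXP3-low and at 7.22, 6.01 and 6.89 CPM in FOXP3-high. The FOXP3-high libraries lay inside the FOXP3-low range, and the log2 fold change of -0.03 ± 0.17 had a 95% interval from -0.42 to 0.35 (edgeR adjusted p = 0.89). With T cell identity scaling Vhl was at -0.41 (edgeR adjusted p = 0.10), against a median of -0.37 over all genes tested. Hif1a, its substrate, was higher with TMM, at 1126 ± 32.9 and 1476 ± 112 CPM (log2 fold change 0.39 ± 0.05, edgeR adjusted p = 2.78e-04), but was at 0.01 with T cell identity scaling and overlaps Gm15283 on the opposite strand. The ratio of Vhl to Hif1a per kb was 0.0097 to 0.0134 among FOXP3-low libraries and 0.0074 to 0.0102 in FOXP3-high (log2 difference -0.42, exact permutation p = 0.086).

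Of 18 genes of the VHL complex, HIF and its targets 5 were higher and 5 lower (edgeR, median -0.07). With T cell identity scaling 12 were lower and the other 6 were not called, where 45.2% of all genes tested were lower, against 24.6% with TMM. Among the hypoxia-induced genes of the list, Car9 alone was called as higher. Vegfa, the angiogenic factor that macrophages also make, fell from 293 ± 17.5 to 98.8 ± 18.8 CPM (a log2 change of -1.57 ± 0.12, edgeR adjusted p = 5.62e-06), Slc2a1, the glucose transporter GLUT1, fell 1.67-fold and Egln3, a prolyl hydroxylase that HIF induces, fell 2.37-fold. Car9, the carbonic anhydrase that HIF induces, was higher with TMM, at 25.3 ± 9.26 and 49.1 ± 22.5 CPM (log2 fold change 0.96 ± 0.33, edgeR adjusted p = 0.036), with overlapping groups and a call that was lost with T cell identity scaling (0.59). Pdk1 (0.21), P4ha1 (-0.06) and Ankrd37 (-0.43, with separate groups) were not called. Bnip3 was called as lower (-0.43, edgeR adjusted p = 0.030), a call that was lost with upper quartile factors and with total counts. The subunits that join VHL in its ligase had group means of 16.1 CPM (Rbx1, FOXP3-high) to 30.7 CPM (Cul2, FOXP3-low), with Elob lower (-0.46 ± 0.08) and Eloc, Cul2 and Rbx1 not called. The macrophage markers given above were lower in the same libraries as Vegfa, Slc2a1, Egln3 and Bnip3, and their part was not tested.

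**Figure D2:**
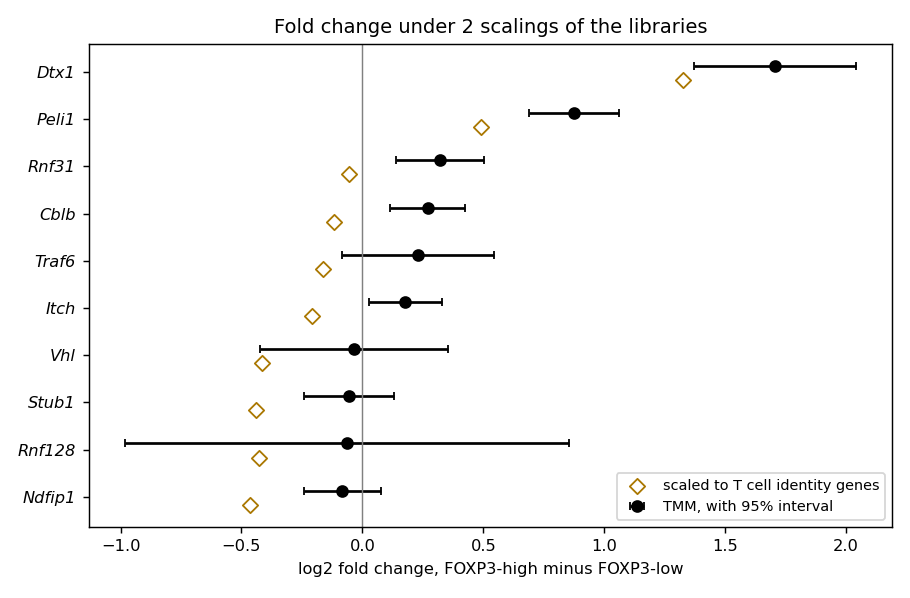
Log2 fold change of each gene, FOXP3-high minus FOXP3-low (x axis), from edgeR with TMM (black, with 95% intervals) and with libraries scaled to 17 T cell identity genes (open diamonds, no interval drawn). Dtx1 and Peli1 stay above 0 under both, while Rnf31, Cblb, Traf6 and Itch lie above 0 with TMM and below 0 with the other scaling.

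**Figure D3:**
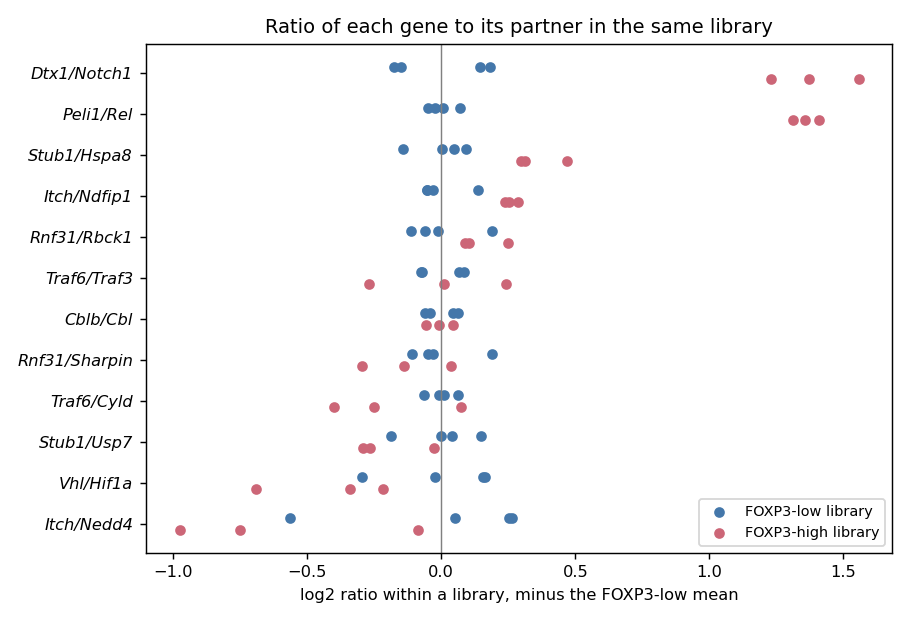
Ratio of each gene to a partner within a library, as log2 minus the mean of the 4 FOXP3-low libraries (x axis), with a blue point for each FOXP3-low library and a red point for each FOXP3-high library. The groups are separate for Dtx1/Notch1, Peli1/Rel, Stub1/Hspa8 and Itch/Ndfip1, and overlap for the other 8.

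Compared per kb of gene length, the levels of the 10 genes fell into tiers that changed between the groups at 2 places. Averaged over the 7 libraries the order was Ndfip1, Peli1, Stub1, Cblb, Itch, Rnf31, Traf6, Vhl, Dtx1 and Rnf128, from 38.0 CPM per kb for Ndfip1 to 0.668 for Rnf128. Peli1 was at 24.5 to 28.9 CPM per kb in FOXP3-low, below each Stub1 value there (28.9 to 35.9, with the closest values 28.86 and 28.90 in replicate 2), and at 45.1 to 55.9 in FOXP3-high, above Ndfip1 (34.9 to 39.8) and Stub1 (29.9 to 34.1). Dtx1 was at 0.863 to 1.19 CPM per kb in FOXP3-low, below Vhl (1.84 to 2.61), and at 2.95 to 3.49 in FOXP3-high, above Vhl (2.01 to 2.41). Over all 7 libraries, the range of Itch (6.80 to 8.59) overlapped that of Rnf31 (5.22 to 7.44). Within every library Itch was above Rnf31, most narrowly in FOXP3-high replicate 3 (7.46 and 7.44). Traf6 (2.28 to 3.57) overlapped Vhl, and their order changed between libraries. Cblb (8.63 to 11.7) lay just above Itch.

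Other E3 ligases and whole symbol families give the setting for these genes. Of 24 further E3 ligases studied in T cells, 8 were higher and 5 lower (edgeR, median log2 fold change 0.03). Under T cell identity scaling 1 was higher and 11 lower, where 6.9% of all genes tested were higher and 45.2% lower. Marchf1, which removes MHC class II from the surface of antigen-presenting cells, fell from 13.6 ± 2.45 to 0.618 ± 0.366 CPM (a log2 change of -4.40 ± 0.34, edgeR adjusted p = 6.33e-06), as did the dendritic cell and MHC class II markers given above. Socs2, a substrate receptor of cytokine signalling, rose from 13.2 ± 0.677 to 23.8 ± 0.902 CPM. Its relative Socs3 fell from 258 ± 19.9 to 167 ± 6.10 CPM. The call of Socs2 held with T cell identity scaling (0.47), which shifts fold changes down and so could not test the decrease of Socs3. Huwe1, a giant HECT ligase, was higher by 0.35 with TMM and at -0.03 with that scaling.

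Of 58 tested RNF genes 23 were higher and 7 lower with TMM (median 0.16) but 7 higher and 22 lower with T cell identity scaling (median -0.22). Of 43 tested TRIM genes 20 were higher and 5 lower (median 0.25), against 8 and 13 with T cell identity scaling, and of 42 tested USP deubiquitinase genes 16 were higher and 4 lower (median 0.18), against 2 and 18. The median of the 10 genes, 0.20 with TMM and -0.18 with T cell identity scaling, lay within the range of these 3 families under both scalings. The RNF family itself includes Rnf31 and Rnf128 of the 10. Over all genes tested the medians were 0.01 and -0.37, with 21.8% and 6.9% higher and 24.6% and 45.2% lower.

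**Figure D4:**
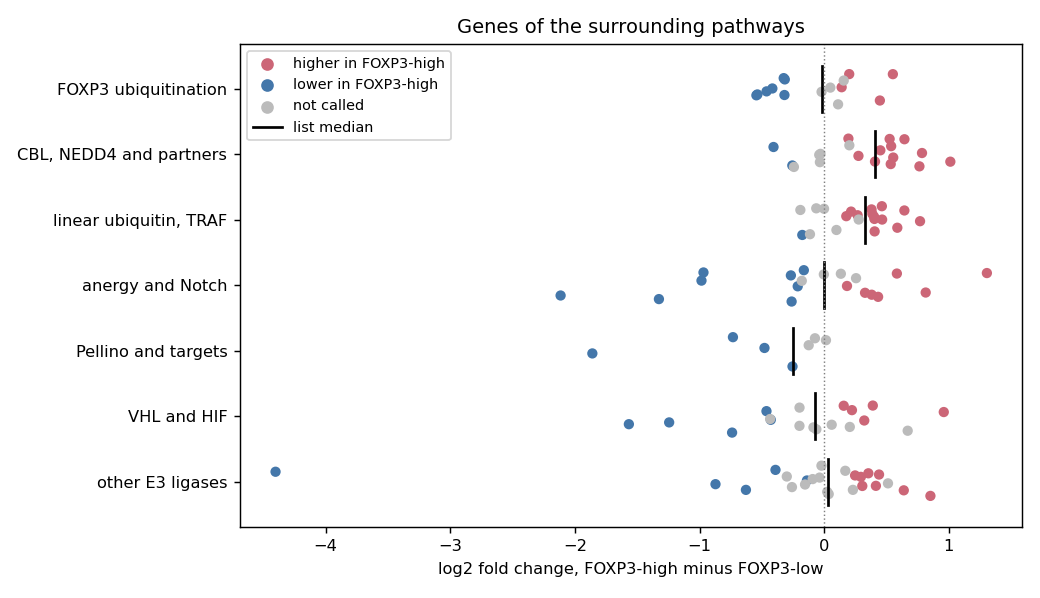
Log2 fold change, FOXP3-high minus FOXP3-low with TMM (x axis), of each tested gene in 7 lists around the 10 genes, with points coloured by the edgeR call and a black line at each list's median. The medians of the CBL and NEDD4 list (0.41) and of the linear ubiquitin and TRAF list (0.33) lie above 0 with TMM and that of the Pellino list (-0.25) below. With T cell identity scaling these medians become 0.02, -0.06 and -0.64, against -0.37 over all genes tested.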

How the data were processed

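The authors deposited whole-number counts per gene for 7 libraries, without normalization, with gene coordinates and length in bases. Total RNA isolated with TRIzol went into stranded mRNA libraries, per the labels' protocols. The submitters' processing notes name fastp 0.23.4, STAR 2.5.3a, featureCounts and, for mouse, GRCm39. How strand, shared reads and duplicate reads were treated is not given in the sources here, so counts of overlapping genes are uncertain. The unmapped sample columns numbered 0.

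Groups and replicate numbers came from sample titles. In R 4.3.3, edgeR 4.0.16 kept 15838 genes by filterByExpr (minimum count 10, minimum total 15), normalized by TMM (factors 0.973 to 1.05) and tested FOXP3-high against FOXP3-low by the quasi-likelihood test without a block. Benjamini-Hochberg adjustment ran over all tested genes and 0.05 was the threshold. A standard error is the size of the log2 fold change over the square root of F, and 95% intervals use the test's degrees of freedom. A CPM of 1 rests on 8.98 to 14.3 counts. Ratios divide counts per kb of 2 genes in a library and were tested by exact permutation of the 7 libraries, two-sided on the absolute difference in mean log2 ratio. The fit was tested on simulated data.

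The 10 genes, the lists, the ratios and the alternatives were chosen with earlier results of these data known. In each list up to 4 genes with the smallest adjusted p are named, as are all genes of a ratio. Dgka's overlapping gene Pmel, Dtx2, Dtx3, Dtx3l, Dtx4, Otub1, Usp8, Hspa1b, Elob, Eloc and Cul2 were named outside this rule after their values were seen. So were Rbx1, Car9, Pdk1, P4ha1, Bnip3, Ankrd37 and Clec9a. A gene that the rule names is not reported here. Alternatives were DESeq2 size factors, upper quartile factors, total counts or the 17 T cell identity genes as scaling, no filter or at least 50 counts in 3 libraries, limma-voom (limma 3.58.1) or the Wald test of DESeq2 1.42.0, leaving out each library or both numbered 3, and a replicate block. Promoters came from RefSeq (GRCm38.p6), matched by symbol for 8 of the 10 genes.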

Additional observations from a re-analysis of the deposited data

Results flagged for a closer look

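The ratio of Itch to Ndfip1 in FOXP3-low was marked because 1 library stood apart from the other 3. FOXP3-low replicate 3 was at 0.199, the others at 0.175 to 0.177, and the gap took up 0.887 of the group's range, above Dixon's critical value for 4 samples. This was 1 of 22 groups of 4 libraries examined, and chance marks about 1 in 20 groups. That library also held the most fibroblast and endothelial marker counts of FOXP3-low, 679 CPM against 138 to 173 CPM, and without it the log2 difference of the ratio between groups was 0.31, against 0.26 with it. The part of those cells in the ratio was not tested.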

How the results depend on the processing

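Of 396 results recomputed under an alternative, 360 were labelled as the same. For log2 fold changes of the 10 genes this means the same direction and side of the threshold. Gene counts, medians and ratios carried no p-value here, and a count with this label could differ, such as 6392 changed genes against 7357. Scaling to T cell identity genes had the widest effect: 1093 genes were higher and 7160 lower, and of the 10 genes 2 were higher and 3 lower. Under it the log2 fold changes were -0.12 for Cblb, -0.21 for Itch, -0.056 for Rnf31 and -0.16 for Traf6, each turned in sign, and -0.44 for Stub1 and -0.47 for Ndfip1, which became calls. Itch was called as higher with upper quartile factors (0.23), total counts (0.24), the filter of 50 counts (0.18), without FOXP3-low replicate 4 (0.22), without FOXP3-high replicate 3 (0.22) and without both libraries numbered 3 (0.22, where Rnf31 lost its call at 0.26). For genes near 0 the sign turned with total counts (Stub1 0.013, Rnf128 0.015, Vhl 0.036) and upper quartile factors (Vhl 0.015).

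Leaving out each library in turn gave 6392 to 6890 changed genes (2718 to 3318 higher and 3412 to 3674 lower) and 4 to 6 of the 10 genes higher, with 6 reached without FOXP3-high replicate 3. Log2 fold changes ran from -0.14 to 0.0091 for Stub1, 0.15 to 0.22 for Itch, 0.063 to 0.37 for Traf6, -0.56 to 0.30 for Rnf128 and -0.12 to 0.062 for Vhl. For Rnf128 the sign turned without FOXP3-low replicate 1 (0.11) or FOXP3-high replicate 2 (0.30), for Vhl without FOXP3-low replicate 2 (0.051) or FOXP3-high replicate 2 (0.062), and for Stub1 without FOXP3-low replicate 1 (0.0091). The ratio of Cblb to Cbl ran from -0.033 to 0.019 (0.013 and 0.0071 without FOXP3-low replicates 2 and 4) and that of Traf6 to Traf3 from -0.13 to 0.13 (0.016 and 0.023 without FOXP3-low replicates 2 and 3; 0.15 without both libraries numbered 3).

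Libraries with the same replicate number deviated together with correlations of -0.10, 0.10 and 0.53. Those with unlike numbers had correlations from -0.55 to 0.34, so the 0.53 of the libraries numbered 3 was the highest. The labels name no animals, and the numbers were not treated as pairs. The replicate block gave 7029 changed genes and the same 4 of the 10 genes as higher, and the ratio of Cblb to Cbl became 0.0071. The libraries held 9 to 38 counts of Rnf128, 54 to 105 of Vhl and 191 to 276 of Traf6, and the 95% intervals of all 3 included 0. The cause of these shifts was not tested.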
